A study of Mus musculus with 28 samples.

Results

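The integrin genes described here are Itga2, Itga3, Itga5, Itga6, Itgav, Itgb1, Itgb3, Itgb4, Itgb5 and Itgb6, 10 of the 22232 protein-coding genes with an annotated start site in the mouse mm9 genome. H3K27ac peaks were assigned to them where the summit lay within 100 kb of one of their start sites and no other protein-coding start site was nearer. This gave 1508 of the 893719 peaks called in 15 ChIP-seq libraries, and 137 of the 89050 regions obtained by merging overlapping peaks. The genes were not picked by a threshold on H3K27ac, but they were chosen with earlier results of these data known. The study had already named Itga2 and Itgb3 among genes with ERK-dependent H3K27ac. All libraries came from NMuMG cells, an untransformed epithelial line from mouse mammary gland, used here as the subclone NMuMG/E9, so that all conditions describe 1 cell line in culture. There were 3 libraries for each of 5 conditions. Untreated cells (0h) were compared with cells given 2 ng/ml TGF-β together with the solvent DMSO for 4 hours (4h) or 24 hours (24h). In ERKi 4h and ERKi 24h, 25 µM of UO126, an inhibitor of the kinase MEK that activates ERK, was added 30 minutes before the same TGF-β treatment. The questions were where H3K27ac around these genes changed during TGF-β-induced epithelial to mesenchymal transition (EMT), and where it differed when ERK signalling was inhibited.

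Integrins are receptors for the extracellular matrix that consist of 1 α and 1 β subunit, each from its own gene. Itga2 encodes a subunit of a collagen receptor, and Itga3, Itga6 and Itgb4 encode subunits of laminin receptors, of which the pair of Itga6 and Itgb4 anchors epithelial cells to the basement membrane in hemidesmosomes. Itga5 pairs with Itgb1 in the main fibronectin receptor, and Itgb1 is the partner of many α subunits. Itgav pairs with Itgb1, Itgb3, Itgb5 or Itgb6, and receptors with Itgav bind matrix proteins such as vitronectin and release active TGF-β from its latent complex. H3K27ac, acetylation of lysine 27 on histone H3, marks active promoters and enhancers, so the peaks show where chromatin near a gene carries this mark and not how much of the gene's RNA is made.

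Each library held between 50445 and 69180 peaks, and the libraries numbered 2 had the narrowest peaks of every condition, with median widths of 423 to 453 bp against 478 to 647 bp in the others. All 10 genes had a peak within 2500 bp of a start site in all 15 libraries. Of the epithelial markers, Cdh1, Krt8, Krt18 and Krt19 also had such a peak in all 15 libraries, Cldn3 had it in 1, and Epcam, Cldn7 and Esrp1 in 0. Markers of endothelium, muscle and neurons had none, and of the leukocyte markers Itgam had a peak in 4 libraries, Sfpi1 in 7 and the other 3 in 0. As the cells were measured in bulk, a weaker mark in every cell and the mark in fewer cells cannot be told apart. The labels do not say that the 3 libraries of a condition came from separate cultures, so the p-values measure the spread between these libraries, which may be technical.

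A promoter window of 1000 bp before to 100 bp after a start site held 55 of the 1508 peaks, and the other 1453 were counted as distal. For most of the genes this split falls inside the start-site region itself. The regions at the starts of Itga2, Itga5, Itga6, Itgav, Itgb1, Itgb3 and Itgb5 had their median summits downstream, where they count as distal. Of the regions with a peak in every library, those of Itga3 and Itgb4 had their median summits inside the window, at -411 and -10 bp. Itga3 had a summit in the window in all 15 libraries, whereas Itgb4 had it in 2 of 3 at 0h and in ERKi 4h. Itgb1 had a summit in the window in 1 library at 0h, 2 at 4h and all 3 of each other condition. Some libraries also had one for Itga2, Itgav, Itgb3 or Itgb5. The region nearest to the start of Itgb6 had its summit 2108 bp downstream. In the wider class of 2500 bp to either side, 244 peaks lay close to a start site.

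Heights were compared in regions with a peak in all 15 libraries, which were 42 of the 137 integrin regions and 26934 of the 89050 in all. Of these 42, 11 lay within 2500 bp of a start site. Itgb6 had 11 of the 42, Itgb4 6, Itga3 and Itgav 5 each, Itga2 4, Itga6 and Itgb5 3 each, Itgb1 and Itgb3 2 each and Itga5 1. Height is given as the number of overlapping fragments at the highest summit of a library in the region, after quantile normalisation over all such regions. Each region is named by the distance of its median summit from the first annotated protein-coding start site of the gene. All coordinates are mm9.

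**Figure D1:**
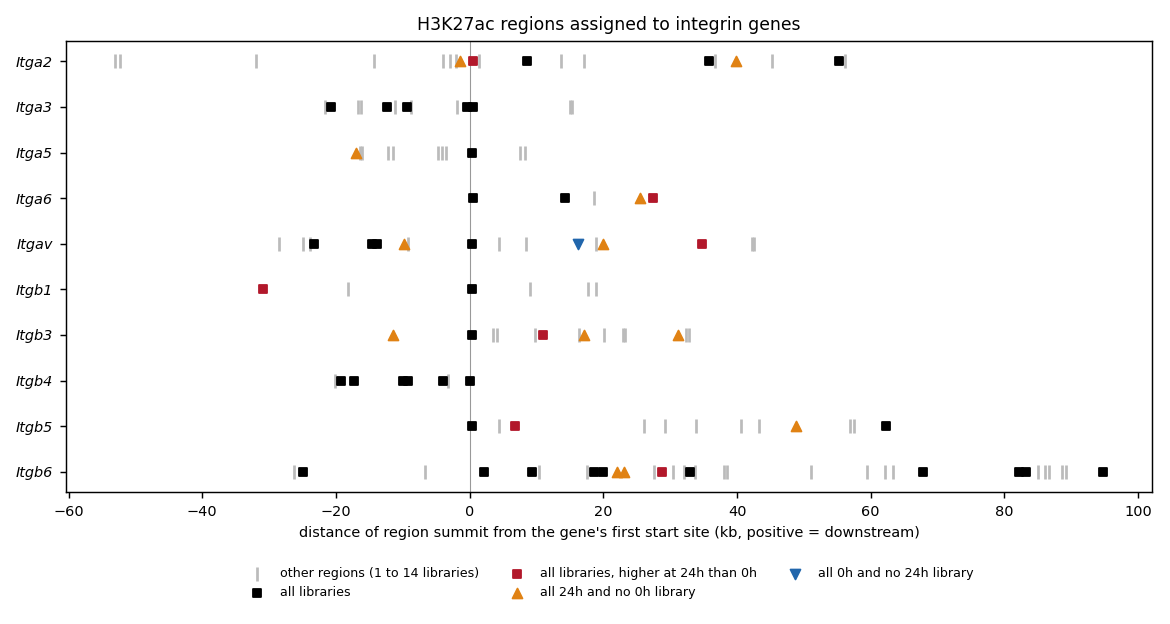
Position of each of the 137 integrin regions (x axis, kb from the first protein-coding start site of the gene, negative upstream) for the 10 genes, one row per gene. Marks distinguish regions with a peak in all 15 libraries from those with a peak in fewer. The 32 regions of Itgb6 and 19 of Itga2 are spread within these genes and upstream of their first start sites, whereas Itgb1 had 6 regions and Itga6 5.

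The sequences shown are those of the regions described most below, each as 200 bases around the median summit on the plus strand. For 24h against 0h and for ERKi 24h against 24h, they are the 3 with the largest log2 difference among the regions that passed the test, lay over 2500 bp from a start site and overlapped no UTR. In capitals are matches, on either strand, to 5 short motifs that were searched: TGANTCA for AP-1, GGAATG for TEAD, CAGACA for SMAD, TGTGGT for RUNX and AACCNGTT for GRHL. The first 3 sequences come from regions that rose with TGF-β. They are introns of Itgav at chr2:83599142-83599341, Itgb5 at chr16:33836434-33836633 and Itgb3 at chr11:104480255-104480454. The last 3 come from regions that differed with the inhibitor. They lie upstream of Itga3 at chr11:94947446-94947645, inside Itgb5 at chr16:33891935-33892134 and inside Itgb6 at chr2:60492710-60492909.
Itgav, 34.7 kb downstream: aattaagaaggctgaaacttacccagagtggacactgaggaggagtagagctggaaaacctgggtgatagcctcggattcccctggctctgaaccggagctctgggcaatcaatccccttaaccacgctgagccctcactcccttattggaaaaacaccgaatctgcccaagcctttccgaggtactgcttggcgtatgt
Itgb5, 6.78 kb downstream: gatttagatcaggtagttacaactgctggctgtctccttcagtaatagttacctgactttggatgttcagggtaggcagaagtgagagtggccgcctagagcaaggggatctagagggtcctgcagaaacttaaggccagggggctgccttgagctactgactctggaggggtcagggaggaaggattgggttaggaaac
Itgb3, 10.98 kb downstream: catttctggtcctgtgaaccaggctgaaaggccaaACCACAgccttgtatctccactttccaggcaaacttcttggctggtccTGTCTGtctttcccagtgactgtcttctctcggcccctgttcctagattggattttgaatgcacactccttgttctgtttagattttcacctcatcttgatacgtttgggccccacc
Itga3, 9.43 kb upstream: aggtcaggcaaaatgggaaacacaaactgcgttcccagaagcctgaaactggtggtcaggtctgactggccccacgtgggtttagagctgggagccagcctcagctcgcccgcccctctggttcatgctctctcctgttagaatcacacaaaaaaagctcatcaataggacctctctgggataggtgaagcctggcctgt
Itgb5, 62.3 kb downstream: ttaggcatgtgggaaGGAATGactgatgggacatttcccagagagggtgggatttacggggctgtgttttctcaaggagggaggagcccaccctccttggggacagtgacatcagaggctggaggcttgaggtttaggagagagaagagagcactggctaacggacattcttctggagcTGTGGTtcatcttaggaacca
Itgb6, 67.9 kb downstream: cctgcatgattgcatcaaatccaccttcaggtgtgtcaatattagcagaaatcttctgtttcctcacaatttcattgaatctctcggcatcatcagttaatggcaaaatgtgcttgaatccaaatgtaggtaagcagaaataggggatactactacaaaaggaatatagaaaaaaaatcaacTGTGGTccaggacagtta
The Itgav, first Itgb5 and Itga3 sequences held no match to the 5 motifs, which says only that these letters are not in these 200 bases. Over the 42 integrin regions, 11 held the SMAD letters, 6 the RUNX, 4 the TEAD, 1 the AP-1 and 0 the GRHL letters. The shares among the 26934 regions were 15.9% for SMAD, 11.3% for RUNX, 9.62% for TEAD, 4.16% for AP-1 and 1.27% for GRHL. A match describes the letters only and does not show that a factor binds.

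The number of distal peaks assigned to the 10 genes together was higher after TGF-β. It was 68, 72 and 87 in the 0h libraries, 92, 92 and 104 at 4h, and 121, 110 and 123 at 24h. ERKi 4h libraries had 85, 87 and 105, and ERKi 24h libraries 110, 88 and 109. The 24h and ERKi 24h libraries lay above all 0h libraries, 1 ERKi 24h library reached the lowest 24h value, and ERKi 4h overlapped with 4h. Over the whole genome the 24h libraries held 56759 to 68050 peaks and the 0h libraries 52221 to 59658, and the part of this difference in the integrin counts was not tested. Peaks are counted as called, and a library can hold several in the same merged region. Itga6 had 5 regions and up to 9 distal peaks in a library, Itgb1 6 and up to 8, and Itgb3 14 and up to 19. How much of a higher number came from more peaks within a region was not tested.

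At 24h, 5 of the 10 genes (Itga2, Itga3, Itga5, Itgb1 and Itgb3) had more distal peaks in every library than in any 0h library, and 0 had fewer. Among all 14316 genes with a distal peak, 12.1% were higher and 4.12% lower in this way. At 4h against 0h, Itga2, Itga6 and Itgb1 were higher and 0 lower, against 4.07% and 1.11% of all genes. In ERKi 4h against 4h, Itga2 and Itgb5 were lower and 0 higher, against 0.992% lower and 1.36% higher of all genes. In ERKi 24h against 24h, 0 of the 10 genes were separated in either direction, against 4.04% higher and 3% lower of all genes. With 3 libraries against 3 the smallest two-sided exact permutation p is 0.1, so that no single gene can pass 0.05. When the libraries were matched by replicate number, 3 genes were lower in ERKi 24h against 24h. Itga3, Itga5 and Itgb3 had fewer distal peaks in all 3 pairs and 0 were higher, against 6.02% lower and 8.17% higher of all genes. In ERKi 4h against 4h, Itga2 and Itgb5 were lower in all 3 pairs and Itgb6 was higher, against 2.49% lower and 4.6% higher. Without replicate 3 of 0h, 8 genes were separated at 24h against 0h and 5 at 4h against 0h. Without replicate 2 of 24h, 3 were separated in ERKi 24h against 24h. Fewer libraries make separation easier for every gene, and the shares of all genes were not computed for these settings.

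Itga2, of the collagen receptor, had 9, 7 and 10 distal peaks at 0h, 15, 16 and 14 at 4h and 16, 19 and 15 at 24h. With the inhibitor it had 7, 11 and 11 at 4h and 11, 8 and 15 at 24h. Its ERKi 4h libraries overlapped with 0h and were below all 4h libraries, while 1 ERKi 24h library reached the lowest 24h value. Over both times, ERKi libraries had 5.33 fewer Itga2 distal peaks than the libraries without inhibitor (exact permutation test within times, two-sided, p = 0.01, adjusted over 14316 genes 0.998). With the libraries matched by number, the exact permutation p was 0.0625, where the smallest possible is 0.03125. No gene of the 14316 passed the adjusted threshold in this test (0 genes), 503 had an unadjusted p under 0.05, and of the integrin genes Itga2 was the 1 that did.

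Itgb3, which pairs with Itgav in a vitronectin receptor, had 6, 7 and 6 distal peaks at 0h, 7, 5 and 7 at 4h and 16, 11 and 19 at 24h. Its ERKi 24h libraries had 12, 8 and 9, which overlapped with 24h in 1 library and lay above the 0h libraries. Itga5, of the fibronectin receptor, had 1 distal peak in every 0h, 4h and ERKi 4h library, and 7, 3 and 9 at 24h. That 1 peak belonged to its start-site region, with a median summit 390 bp downstream, which counts as distal here. The ERKi 24h libraries had 4, 1 and 4. Itgb1 had 3 distal peaks in every 0h library and 5 to 8 in all other libraries, with or without the inhibitor. Itga6 had 3, 4 and 5 at 0h, 8, 6 and 7 at 4h and 7, 7 and 5 at 24h, so that the 4h libraries were separated from 0h and the 24h libraries were not. Itgb5 had 10, 10 and 11 at 4h and 7, 8 and 7 in ERKi 4h. Itga3 had 8 in every 0h library and 10, 9 and 11 at 24h, and Itgav, with 7 to 13 in all libraries, overlapped in the 4 comparisons made of distal peak numbers. Itgb4 showed no separation in these 4 comparisons, with 5 to 10 in all libraries, and Itgb6 had the most, between 18 and 34.

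**Figure D2:**
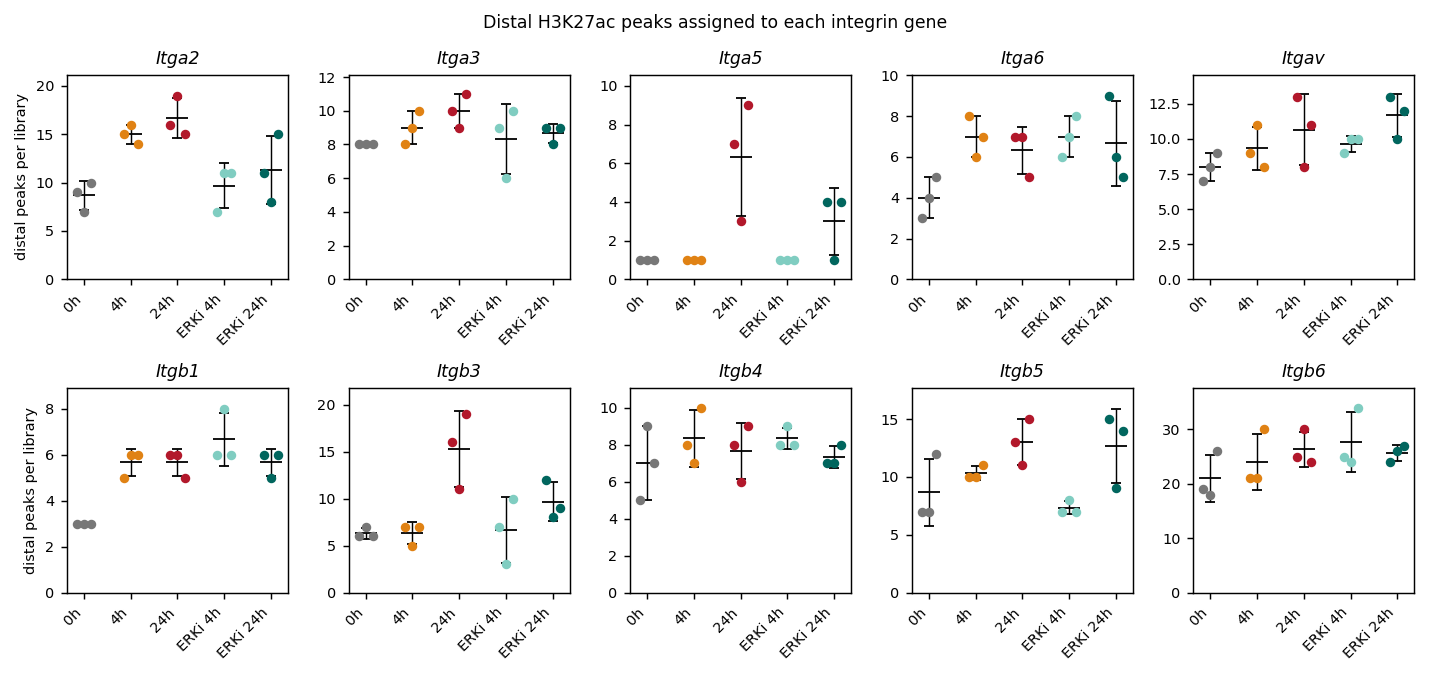
Number of distal H3K27ac peaks (y axis) per library for each of the 10 genes in the 5 conditions, with points for the 3 libraries and bars for the mean ± SD. Itgb3 reached 11 to 19 peaks at 24h from 6 to 7 at 0h, and Itga2 rose to 14 to 16 at 4h from 7 to 10 at 0h.

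In the heights, 7 of the 42 integrin regions rose at 24h against 0h and 0 fell (limma, adjusted p under 0.05), against 10.3% of all regions higher and 7.9% lower. The 7 were 1 region each of Itgav, Itgb5, Itgb3, Itgb1, Itga6, Itgb6 and Itga2. The median log2 difference was 0.20 over the 42 and -0.05 over all 26934. At 4h against 0h, 4 regions (Itgav, Itgb5, Itgb6 and Itga6) rose and 0 fell, against 3.37% and 0.397%, with medians of 0.25 and -0.06. All 4 had also risen at 24h, in comparisons that share the 0h libraries.

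With the inhibitor, 1 region of Itgb5 fell in ERKi 4h against 4h and 0 rose, against 0.394% lower and 0.0223% higher of all regions. At 24h, 3 regions (Itga3, Itgb3 and Itgb5) fell and 1 of Itgb6 rose in ERKi 24h against 24h, beside 4.3% lower and 3.63% higher. The medians over the integrin regions were -0.11 and -0.07, beside 0.02 and 0.01 over all regions. In ERKi 24h against 0h, 6 regions rose (3 of Itgb6 and 1 each of Itgav, Itgb5 and Itgb1) and 4 fell (3 of Itga3 and 1 of Itgb5), against 10.9% higher and 9.38% lower. The difference made by the inhibitor was not shown to change between 4h and 24h in any of the 26934 regions by this fit, which called 0% of them. Of the integrin regions, 2 had an unadjusted p under 0.05 there, and the lowest adjusted p was 0.823.

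Replicate numbers paired the libraries, and a fit with the number as a block called more regions everywhere. At 24h against 0h, 15 integrin regions rose and 2 fell (all regions 17.5% and 18.9%), and at 4h against 0h 15 rose and 0 fell (11.2% and 6.61%). In ERKi 4h against 4h, 0 rose and 6 fell (1.34% and 3.98%). In ERKi 24h against 24h, 2 rose and 12 fell (14.2% and 13.5%), and in ERKi 24h against 0h 14 rose and 7 fell (20.3% and 21.4%). The change of the inhibitor's difference between 4h and 24h was called in 1 integrin region, 20.8 kb upstream of Itga3, and in 3.99% of all regions. Every call made without the block was also made with it.

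The direction of most of these calls depended on the measure. With the fold enrichment of the peak over its local background in place of the number of fragments, 1 integrin region rose at 24h against 0h and 5 fell, against 2.45% and 2.62% of all regions. The local background rose with the summit. The sources used here do not say whether this background came from the same library or from an input. At the Itga6 region 27.5 kb downstream, the unnormalised summits were 53, 35 and 49 fragments at 0h and 88, 61 and 83 at 24h, and the background was 8.1, 5.5 and 6.8 fragments at 0h and 14.2, 10.9 and 16.8 at 24h. Fold enrichment there was 5.98 ± 0.43 at 0h and 5.26 ± 0.58 at 24h (mean ± SD, n = 3). The intronic Itgav region was the only one that rose at 24h against 0h by both measures, with a log2 difference of 0.73 in fold enrichment (adjusted p = 0.0144). The 5 that fell by fold enrichment were 2 regions of Itga2 and 1 each of Itga5, Itgav and Itgb6.

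**Figure D3:**
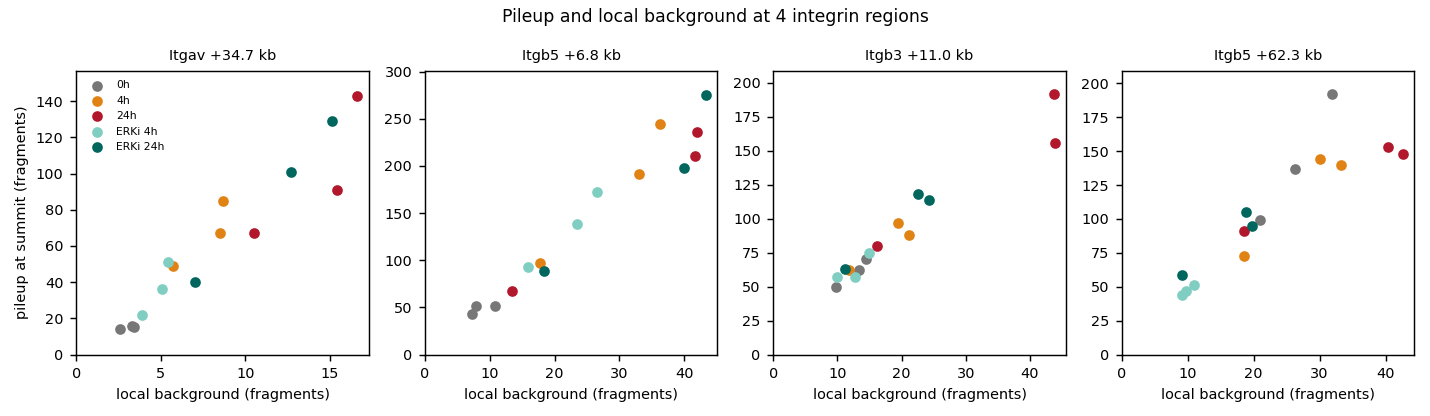
Fragments at the summit (y axis, unnormalised pileup) against the local background (x axis, fragments) in 4 regions of Itgav, Itgb5 and Itgb3, one point per library, coloured by condition. In the Itgav region the 24h libraries lie to the right of and above the 0h libraries, with backgrounds of 10.5 to 16.6 against 2.6 to 3.4 fragments.

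Itgav, the α subunit of the vitronectin and latent TGF-β receptors, held the region with the highest fold change. The intron region 34.7 kb downstream of its start (chr2:83598449-83600358) had 15.1, 17.0 and 15.7 normalised fragments at 0h. It had 59.1, 60.3 and 79.8 at 4h and 79.4, 78.2 and 143.7 at 24h. Libraries with the inhibitor had 35.6, 25.3 and 49.7 at 4h and 76.7, 51.0 and 100.3 at 24h. All libraries given TGF-β lay above the 0h libraries, and the ERKi 4h libraries lay below the 4h libraries. The rise was 6.06-fold at 24h (log2 2.60, SE 0.30, adjusted p = 2.0e-05) and 4.14-fold at 4h (log2 2.05, SE 0.30, adjusted p = 0.00073), and it passed in every fit that left out 1 library. In ERKi 4h against 4h the log2 difference of -0.89 (SE 0.30) had an adjusted p of 0.381, and 0.00366 with the replicate block. ERKi 24h remained above 0h by 2.20 on the log2 scale (adjusted p = 8.0e-05). Against 24h the difference in ERKi 24h was -0.39 (adjusted p = 0.529).

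Itgb5, another partner of Itgav in vitronectin binding, had 2 regions past the test, of which 1 rose with TGF-β and the other fell with the inhibitor. The intron region 6.78 kb downstream (chr16:33835980-33838197) had 41.3, 54.1 and 55.1 normalised fragments at 0h. It had 168.0, 117.1 and 228.8 at 4h and 180.9, 78.2 and 235.0 at 24h. ERKi 4h libraries had 137.3, 118.9 and 181.8, and ERKi 24h libraries 145.0, 118.4 and 204.8. Libraries with TGF-β did not overlap with 0h, whether or not the inhibitor was present, and the ERKi libraries overlapped with their counterparts. The log2 difference was 1.73 at 4h (SE 0.33, adjusted p = 0.00542) and 1.58 at 24h (SE 0.33, adjusted p = 0.00246). Between ERKi 24h and 24h it was 0.03 (adjusted p = 0.982).

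The other Itgb5 region, 62.3 kb downstream (chr16:33890811-33893391), was the integrin region farthest from its nearest start site. It had 139.7, 120.7 and 149.8 normalised fragments at 0h, 122.2, 88.7 and 137.2 at 4h and 127.9, 106.8 and 153.6 at 24h. Libraries with the inhibitor had 43.4, 64.3 and 45.4 at 4h and 72.4, 76.7 and 82.0 at 24h. All 6 ERKi libraries were below all 9 others. The log2 difference was -1.18 in ERKi 4h against 4h (SE 0.20, adjusted p = 0.0112) and -0.74 in ERKi 24h against 24h (SE 0.20, adjusted p = 0.0324). These calls were lost without 1 of several libraries: at 4h without replicate 1 or 3 of either condition, at 24h without replicate 1 or 3 of 24h or any ERKi 24h replicate. Fold enrichment gave differences of 0.11 and 0.30, of opposite sign and past no threshold.

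Itgb3 had its highest levels at 24h in both of its tested regions. The intron region 10.98 kb downstream (chr11:104479462-104481824) had 54.9, 62.6 and 67.2 normalised fragments at 0h, 84.5, 75.8 and 82.9 at 4h and 165.2, 93.7 and 156.5 at 24h. With the inhibitor it had 55.9, 72.1 and 76.1 at 4h and 88.4, 82.0 and 89.1 at 24h. The 24h libraries were above all others, and ERKi 24h libraries above all 0h libraries. The log2 difference at 24h against 0h was 1.13 (SE 0.21, adjusted p = 0.0009). ERKi 24h against 24h gave -0.64 (SE 0.21, adjusted p = 0.0698), and an adjusted p of 0.0029 with the replicate block.

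The start-site region of Itgb3 (chr11:104468852-104470187) had 76.0, 73.3 and 66.1 normalised fragments at 0h, 79.4, 85.2 and 82.0 at 4h, and 129.7, 78.2 and 107.9 at 24h. ERKi 4h libraries had 76.2, 79.4 and 75.0 and ERKi 24h libraries 75.2, 57.6 and 57.6. The ERKi 24h libraries were below all 24h libraries, and replicate 2 of 24h was below all 4h libraries. ERKi 24h against 24h gave -0.71 (SE 0.19, adjusted p = 0.0291). This call was lost without replicate 1 or 3 of 24h or replicate 2 or 3 of ERKi 24h, and fold enrichment gave 0.155. At 24h against 0h the log2 difference was 0.52 (adjusted p = 0.0683, and 0.0055 with the replicate block).

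Itgb6, which encodes the epithelial partner of Itgav in binding latent TGF-β, had 3 regions past the test in some comparison. An exon region 28.8 kb downstream (chr2:60530536-60532730), 20.1 kb upstream of the nearest start site, had 96.0, 104.2 and 145.1 normalised fragments at 0h. It had 216.7, 181.7 and 245.9 at 4h and 181.8, 140.9 and 229.5 at 24h. Its ERKi libraries had 203.0, 191.5 and 245.2 at 4h and 199.6, 167.8 and 232.6 at 24h. Of the 24h libraries, 1 lay below the highest 0h library, and the ERKi libraries overlapped with those without the inhibitor. The log2 difference was 0.91 at 4h (SE 0.20, adjusted p = 0.0123) and 0.67 at 24h (SE 0.20, adjusted p = 0.0231). The 24h call was lost without replicate 1 or 2 of 0h or replicate 1 or 3 of 24h, and 4 such fits lost the 4h call. Relative to 0h, ERKi 24h was higher by 0.81 (adjusted p = 0.00705).

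The Itgb6 coding-exon region 67.9 kb downstream (chr2:60490754-60493487) was the only integrin region that rose with the inhibitor in this fit. It had 91.0, 72.1 and 84.6 normalised fragments at 0h, 130.2, 108.7 and 112.1 at 4h and 88.8, 88.7 and 98.2 at 24h. ERKi 4h libraries had 129.8, 122.7 and 139.9, and ERKi 24h libraries 166.0, 146.9 and 126.3. The 24h libraries were below all 4h libraries and overlapped with those at 0h, whereas ERKi 24h libraries were above all 24h libraries. The log2 difference in ERKi 24h against 24h was 0.66 (SE 0.15, adjusted p = 0.0117), and without replicate 1 of ERKi 24h it was 0.57 (adjusted p = 0.0628). At 4h against 0h it was 0.51 (adjusted p = 0.0801, and 0.00254 with the replicate block). A lower region 24.9 kb upstream had 32.8, 20.0 and 23.2 normalised fragments at 0h, 41.6, 27.9 and 37.5 at 24h and 42.9, 51.0 and 56.8 in ERKi 24h. It was higher in ERKi 24h than at 0h by 1.01 (SE 0.23, adjusted p = 0.00423).

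**Figure D4:**
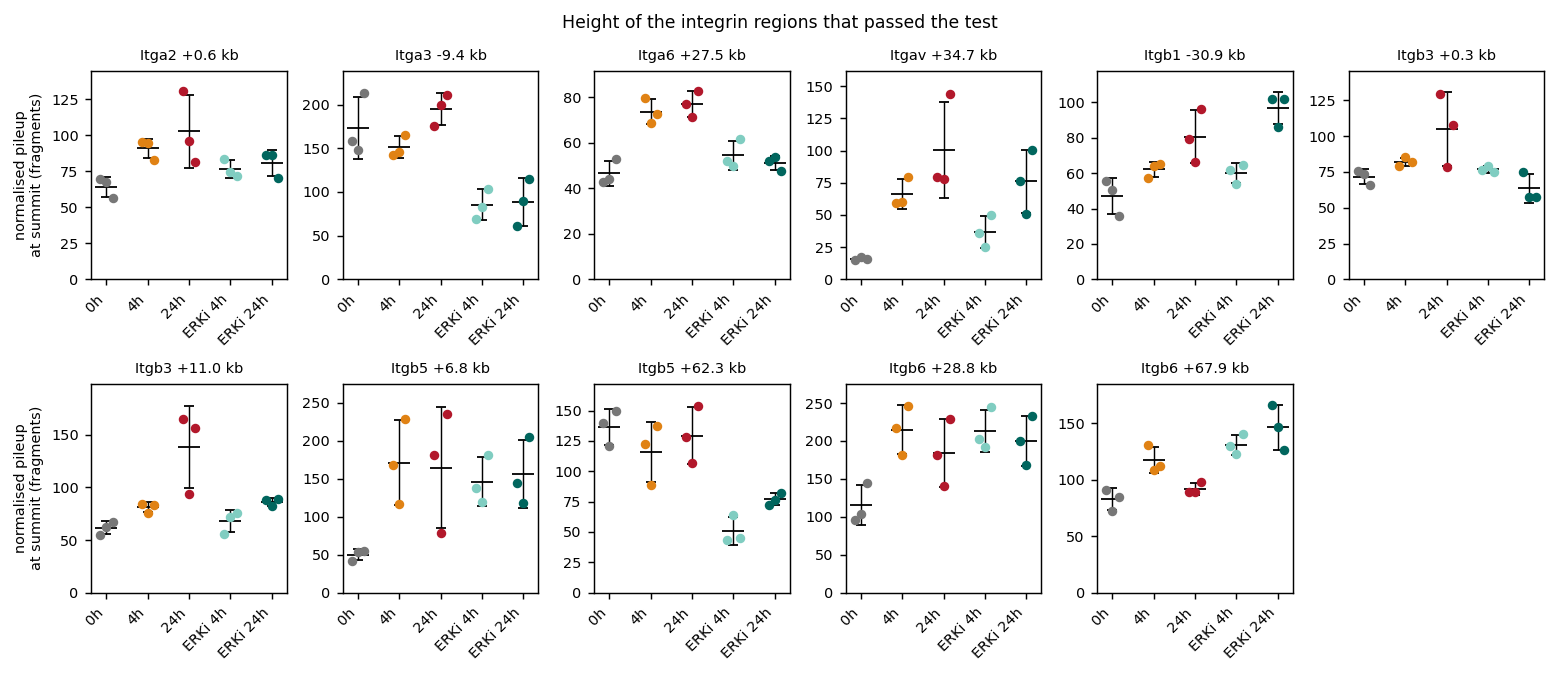
Normalised fragments at the summit (y axis, linear from 0) per library in the 11 integrin regions that passed the test at 24h against 0h or between ERKi and its counterpart, with points for the 3 libraries of each condition and bars for the mean ± SD. Distances in the panel titles are from the first start site. The Itgav region went from 15.9 fragments at 0h to 100.4 at 24h on average, and the Itgb5 region 62.3 kb downstream from 116.0 at 4h to 51.0 in ERKi 4h.

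Itga3, of a laminin receptor, had no region that passed the test at 4h or 24h against 0h, but 3 upstream regions that were lower in ERKi 24h. The region 9.43 kb upstream (chr11:94947283-94948791) had 158.4, 147.5 and 213.5 normalised fragments at 0h, 142.6, 145.7 and 165.4 at 4h and 174.9, 199.1 and 210.9 at 24h. With the inhibitor it had 69.3, 83.3 and 103.9 at 4h and 60.6, 90.0 and 115.0 at 24h. All 6 ERKi libraries were below all others. The log2 difference was -1.18 in ERKi 24h against 24h (SE 0.21, adjusted p = 0.00248) and -0.84 in ERKi 4h against 4h (SE 0.21, adjusted p = 0.124, and 5.7e-05 with the replicate block). By fold enrichment, ERKi 24h against 24h gave -0.23 (adjusted p = 0.354).

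The Itga3 region 12.4 kb upstream (chr11:94949688-94950888) had 125.3, 140.9 and 175.3 normalised fragments at 24h and 70.6, 92.9 and 119.8 in ERKi 24h. The region 20.8 kb upstream (chr11:94957772-94959150) had 126.1, 99.4 and 155.5 at 24h and 66.3, 80.7 and 91.0 in ERKi 24h. Both sets of ERKi 24h libraries were below all their 24h libraries. The log2 differences were -0.66 (adjusted p = 0.0872) and -0.67 (adjusted p = 0.0762), and with the replicate block the adjusted p was 8.6e-05 and 8.0e-05. Against 0h, ERKi 24h was lower in the 3 regions, with log2 differences of -0.997, -0.77 and -0.84 in order of distance and adjusted p of 0.00288, 0.022 and 0.0119.

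Itga6, of the hemidesmosomal laminin receptor, had 1 of 3 tested regions that rose. The intron region 27.5 kb downstream (chr2:71651531-71652900) lay 12.3 kb upstream of another annotated start site. It had 42.6, 43.9 and 52.7 normalised fragments at 0h, 79.4, 68.7 and 72.5 at 4h and 77.0, 71.2 and 82.7 at 24h. With the inhibitor it had 52.0, 49.7 and 61.6 at 4h and 51.9, 53.7 and 47.4 at 24h. ERKi libraries were below all libraries given TGF-β alone and overlapped with 0h. The log2 difference was 0.73 at 24h (SE 0.18, adjusted p = 0.00826) and 0.67 at 4h (SE 0.18, adjusted p = 0.0494), of which the 4h call was lost in 14 of the 15 fits without 1 library. ERKi 24h against 24h gave -0.59 (SE 0.18, adjusted p = 0.0536, and 0.00335 with the replicate block).

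Itgb4, the hemidesmosomal β subunit, had 6 tested regions and no call in the fit without the block. With the block, the region 17.4 kb upstream, in an intron of the neighbouring gene Sap30bp, rose by 0.71 at 24h (adjusted p = 2.3e-06) and by 0.59 at 4h (adjusted p = 0.0001), and fell by 0.34 in ERKi 24h against 24h (adjusted p = 0.0135). Its start-site region rose by 0.35 at 4h (adjusted p = 0.0178) with the block.

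Itga2 rose at its start site at 24h. The region (chr13:115721119-115722680), with its summit 553 bp downstream, had 69.3, 67.2 and 56.2 normalised fragments at 0h, 95.0, 94.7 and 82.9 at 4h and 130.4, 95.8 and 81.6 at 24h. ERKi 4h libraries had 83.2, 74.6 and 71.7 and ERKi 24h libraries 86.1, 86.2 and 70.4. The 24h and 4h libraries were above all 0h libraries, as were both sets of ERKi libraries. The log2 difference at 24h against 0h was 0.65 (SE 0.19, adjusted p = 0.0215), without replicate 3 of 0h it was 0.56 (adjusted p = 0.0942), and without replicate 1 of 24h 0.46 (adjusted p = 0.146). By fold enrichment the same region fell by 0.77 (adjusted p = 0.0162).

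For the fibronectin receptor, Itga5 had 1 tested region, at its start, which did not pass in this fit. With the block it rose by 0.40 at 24h against 0h (adjusted p = 0.0192) and fell by 0.46 in ERKi 24h against 24h (adjusted p = 0.0109). By fold enrichment, without the block, the same region fell at 24h against 0h. Itgb1 had a region 30.9 kb upstream (chr8:131177481-131179438) with 55.5, 50.4 and 35.7 normalised fragments at 0h, 57.5, 64.04 and 65.1 at 4h, and 79.4, 66.5 and 96.1 at 24h. It had 61.6, 53.8 and 64.9 in ERKi 4h and 102.0, 86.2 and 101.8 in ERKi 24h. The 24h libraries were above all 0h and 4h libraries, and 2 of the 3 ERKi 24h libraries were above all 24h libraries. The log2 difference was 0.78 at 24h (SE 0.21, adjusted p = 0.012) and 1.054 in ERKi 24h against 0h (SE 0.21, adjusted p = 0.00142). The 24h call was lost without replicate 3 of 0h (0.59, adjusted p = 0.0746) or replicate 3 of 24h (0.65, adjusted p = 0.0646).

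Some regions had a peak in all libraries of one condition and none of another. At 24h against 0h, 12 of the 137 integrin regions (8.76%) were gained and 1 was lost (0.73%), against 4.91% gained and 2.07% lost of all 89050 regions. The 12 were 3 of Itgb3, 2 each of Itga2, Itgav and Itgb6, and 1 each of Itga5, Itga6 and Itgb5. The gained regions of Itgb3, Itgav, Itgb6, Itga6 and Itgb5 also had a peak in all 3 ERKi 24h libraries. Those of Itga2 had a peak in 2 and 1 of the ERKi 24h libraries, and that of Itga5 in 2. The gained Itgb6 regions, in introns 23.1 and 22.1 kb downstream, had 149, 96 and 172, and 171, 100 and 146, unnormalised fragments in the 24h libraries. Those of Itgb3 in introns 17.1 and 31.2 kb downstream had 168, 44 and 186, and 70, 26 and 68. For Itgav, 9.83 kb upstream, the values were 106, 45 and 122. The Itgb6 pair were among the higher peaks, at the 88.2 and 88.7 percentile of their libraries on average, whereas Itga5 16.9 kb upstream was at 27.6. Replicate 2 was the lowest 24h library in all 12 regions. In ERKi 24h against 24h, 1 region was gained and 1 lost (0.73% each), against 1.49% and 1.21% of all regions. The lost one, assigned to Itga2, had 19, 17 and 19 fragments at 24h, and lay 53.0 kb upstream in a coding exon of the neighbouring gene Itga1, an α subunit of another collagen receptor. The gained one, of Itgav, had 22, 17 and 17 fragments. Without replicate 2 of 24h, 28 regions were gained or lost at 24h against 0h and 9 in ERKi 24h against 24h, in place of 13 and 2. Fewer libraries make such calls easier for every region, and the shares of all regions were not computed for this setting.

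Of the other 16 integrin genes, 10 had a distal peak in some library, beside 14316 of the 22232 protein-coding genes, and 2 of their regions had a peak in all libraries. The start-site region of Itga1 fell by 0.49 at 24h against 0h (adjusted p = 0.0461). Among the 30 genes of the adhesion complex on the cytoplasmic side of integrins, 149 regions were tested, of which 24 rose and 9 fell at 24h, with a median log2 difference of 0.07. Among 16 genes for integrin ligands, 61 regions were tested, of which 19 rose and 5 fell at 24h, with a median of 0.33. With the inhibitor at 24h, 0 of the ligand regions rose and 8 fell against 24h, in Ltbp1, which encodes a carrier of latent TGF-β, Spp1 (osteopontin) and Col4a2 (a basement membrane collagen). In the adhesion complex 3 rose and 6 fell. These comparisons share the backgrounds of all regions given above.

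The 7 genes with a region that rose at 24h tied at 1 region each, so the 3 with the largest differences are given for likeness, a choice made after their values were seen. Over the 15 libraries, the mean normalised log2 height of Itgav regions was most like that of Sspn (Pearson r = 0.963) and Gxylt2 (0.948), out of 2786 genes. Itgb5 was most like Cdkn2aipnl (0.935) and Lmcd1 (0.926), and Itgb3 most like Ltbp1 (0.888) and Jak2 (0.879). The points share the 15 libraries and their depth.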

How the data were processed

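H3K27ac ChIP-seq (antibody ab4729) libraries from NMuMG cells were used as the peak lists that the authors deposited, 1 per library. The 10 RNA-seq and 3 input samples were not analysed here. Per the study's methods, the authors used Bowtie for alignment to mm9 and MACS2 at its defaults for the peaks. The control used was not given in the sources used here. Each deposited peak holds a fold enrichment (a ratio over local background), the -log10 of its p-value and of its q-value, a summit and a score, which was not used. Depth was not given, and the peak number and the fragments at the summits stand in for it. Fragments and local background at each summit were solved from fold enrichment and p-value, which gave whole fragments (within 0.005 in -log10 p) for all but 25 of 893719 peaks.

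Peaks overlapping by 1 bp or more were merged over libraries into 89050 regions. In regions with a peak in all 15 libraries, the log2 of the highest summit was quantile normalised and fitted over all 5 conditions with limma 3.58.1 (R 4.3.3, moderated with a trend, 10 residual degrees of freedom), with Benjamini-Hochberg adjustment over 26934 regions at 0.05. Only regions present everywhere are tested this way, so those with no peak in a condition are given as gained or lost. Distal peak numbers were compared by whether the libraries of 2 conditions overlap, and by exact permutation tests (numpy 2.4.6). Start sites, locations and sequences are from the mm9 genome (NCBIM37) and its gene annotation. The fit was also run on simulated data with independent spread between libraries, which leaves out the pairing by replicate number described below.

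Samples were grouped by the labels. Deviations from the condition means correlated over 0.1 in 30 of 30 pairs of libraries with the same replicate number (mean 0.576, lowest 0.304). They did so in 9 of 60 pairs with different numbers (mean -0.279). As deviations cancel within a condition, this negative mean follows largely from the positive one and adds no support of its own. From the same-number pairs, the numbers were taken to pair the libraries, a pairing that comes from the data and not from the labels. The number in the peak names of ERKi 4h replicate 1 is out of order with the others.

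The genes, lists and tests were chosen with earlier results of these data known. Regions named in the text passed the test in a comparison without or with the replicate block, or were gained or lost, of which those with the highest summits are given with values. Those of Itgb4 and Itga5 passed with the block alone. Alternatives were other measures of height, other filters on peaks and regions, other windows, the replicate block, and each library left out in turn.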

Additional observations from a re-analysis of the deposited data

Results flagged for a closer look

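The difference made by the inhibitor in the Itga3 region 20.8 kb upstream was more negative at 24h than at 4h by a log2 value of -0.63 with the replicate block (limma, adjusted p = 0.0285), and the fit without the block called 0 regions for this change.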

How the results depend on the processing

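Counts are of the 42 integrin regions unless another number is given, called higher and lower together. The replicate block called 17 at 24h against 0h, 15 at 4h against 0h, 6 in ERKi 4h against 4h, 14 in ERKi 24h against 24h, 21 in ERKi 24h against 0h and 1 for the change of the inhibitor's difference between the times, in place of 7, 4, 1, 4, 10 and 0. It separated 3 genes by distal peak number in ERKi 24h against 24h, in place of 0, and moved no other count of calls by over 1.5 times. With -log10 p as height, the counts were 4, 2, 0, 2 and 6 in the same order of the first 5 comparisons. Fold enrichment gave 1 at 4h against 0h, 0 in ERKi 4h against 4h, 1 in ERKi 24h against 24h and 5 in ERKi 24h against 0h. With peaks of a -log10 q of at least 10, where 32 integrin regions could be tested, the counts were 2 at 4h against 0h, 1 in ERKi 24h against 24h and 6 in ERKi 24h against 0h. Where a peak had to cover 0.5 of the region, which left 22, they were 4 at 24h against 0h, 0 at 4h against 0h, 0 in ERKi 24h against 24h and 2 in ERKi 24h against 0h. With the inhibitor at 24h against 24h, 8 of 54 were called with a peak in at least 2 of 3 libraries, a filter that tests more regions, and 9 of 42 at an adjusted p under 0.1. Another number of regions tested is part of the construction of the filters, and the cause of the other shifts was not tested.

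Leaving out 1 library gave 5 to 9 regions at 24h against 0h, 2 to 5 at 4h against 0h, 0 to 1 in ERKi 4h against 4h, 2 to 6 in ERKi 24h against 24h, 8 to 11 in ERKi 24h against 0h and 0 for the change between the times. Distal peak numbers then separated 5 to 8, 3 to 5, 2 to 3 and 0 to 3 genes in the first 4 comparisons. Gained and lost regions numbered 13 to 28 at 24h against 0h and 2 to 9 in ERKi 24h against 24h. For distal numbers and for gained and lost regions, leaving out a library can only keep or add calls. These ranges therefore cannot show whether the calls hold, and the shares of all genes and regions were not computed for them. With the -log10 q minimum, distal numbers separated 0 genes in ERKi 4h against 4h and 1 in ERKi 24h against 24h, and 8 and 5 regions were gained or lost. Within 50 kb of a start site, 0 genes were separated in ERKi 4h against 4h, and with the 50000 strongest peaks 4 in ERKi 24h against 24h. Gained and lost regions in ERKi 24h against 24h numbered 6 with the cover of 0.5 and 1 with peaks merged over 1000 bp.

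Fold enrichment reversed the direction of 20 calls. At 24h against 0h the log2 differences were -0.13 for Itgb3 10.98 kb downstream, -0.77 for the Itga2 start, -0.024 for Itgb5 6.78 kb downstream, -0.0622 for Itgb6 28.8 kb downstream, -0.18 for Itga6 and -0.22 for Itgb1. With -log10 p the Itga2 start gave -0.20. At 4h against 0h they were -0.18 for Itgb6 and -0.26 for Itga6. With the inhibitor they were 0.11 at 4h and 0.30 at 24h for Itgb5 62.3 kb downstream, 0.155 for the Itgb3 start and -0.26 for Itgb6 67.9 kb downstream. Between ERKi 24h and 0h they were 0.0048, 0.16 and 0.26 for the Itga3 regions from near to far, -0.0522 and 0.0017 for the Itgb5 regions, -0.43 and -0.17 for the Itgb6 regions at 67.9 and 28.8 kb, and -0.14 for Itgb1. The Itgav region 34.7 kb downstream kept its calls against 0h under all 5 settings and all 15 fits without 1 library.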
